A study of Mus musculus with 11 samples.

Results

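Loss of a Csf2 copy was examined in microglia that had already lost a copy of Csf1r, by setting 2 Dhet libraries (Csf1r+/-; Csf2+/-) against 3 Csf1r_het libraries (Csf1r+/-). These 5 libraries were chosen by genotype from the 11 of the series, and every gene whose mean over the 11 libraries reached 10 normalized counts was compared. Each library held total RNA of Tmem119+ microglia sorted from the cerebrum of C57BL/6 mice and was read by bulk RNA sequencing. The Dhet mice were 21 and 24 months old and the Csf1r_het mice 20, 24 and 21 months old, in the order of their replicate numbers. The same copy loss in mice with both Csf1r copies was represented by 3 Csf2het libraries (Csf2+/-) and 3 WT libraries, all from mice of 21 months. The labels do not say whether a library came from 1 animal or from a pool, so p-values measure the spread between these libraries, which may be technical.

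Csf1r encodes the receptor tyrosine kinase for CSF-1 and IL-34, and microglia need its signal to survive and to renew themselves. Csf2 encodes GM-CSF, a cytokine whose receptor pairs the chains of Csf2ra and Csf2rb. GM-CSF activates JAK2 and STAT5 and is known to make microglia proliferate and activate in culture. In people, heterozygous CSF1R mutations cause an adult-onset leukoencephalopathy, and Csf1r+/- mice serve as a model of it.

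Levels are normalized counts, reads per gene divided by a size factor of the library. Log2 fold changes and their standard errors (SE) come from limma, a linear model fitted to log2(normalized count + 1) across all genes and groups, and a gene was called at a p of 0.05 after Benjamini-Hochberg adjustment over all genes tested. Between 21037819 reads (Csf1r_het replicate 1) and 53081638 reads (Csf2het replicate 2) were assigned to genes, with 42265873 and 42346453 in the Dhet libraries. Tmem119, the marker of the sort, had 30741 and 23328 normalized counts in the Dhet libraries and 16377, 16736 and 15711 in the Csf1r_het libraries. The sort marker was abundant in all 5 libraries. Haemoglobin genes took 26.0% and 22.2% of normalized counts in Dhet and 24.8%, 58.8% and 33.2% in Csf1r_het. In sex-linked genes Dhet replicate 2 differed from all the others. It had 4.02 normalized counts of the X-inactivation RNA Xist and 717 of the Y-linked Ddx3y, against 8151 and 2.25 in Dhet replicate 1, while the Csf1r_het libraries held 3011 to 5500 of Xist and 3.16 to 16.3 of Ddx3y. The libraries of 24 months, Dhet replicate 2 and Csf1r_het replicate 2, are also set apart from the others by age. Differences within the 21-month pair and the 24-month pair are therefore given for the main lists. Within the 24-month pair, genotype cannot be told apart from the difference in sex-linked genes. The same holds for values given without Dhet replicate 1, in which Dhet replicate 2 alone stands for Dhet. Dhet replicate 2 is also part of the Dhet group in the full comparison and in the interaction, so this difference enters both. Csf1r_het replicate 2 also had 15.6% of genes at 0, against 4.98% and 6.45% in the other Csf1r_het libraries and 9.88% and 5.64% in Dhet. The pairs are single libraries, so a contrast between pairs cannot be assigned to age.

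Csf1r itself, of which both genotypes carry 1 intact copy, did not separate the groups. It had 40151 and 30254 normalized counts in Dhet and 17017, 40567 and 24022 in Csf1r_het, a log2 difference of 0.45 (exact permutation p = 0.6, two-sided). With 2 libraries against 3 only 10 regroupings exist, so the smallest p this test can give is 0.2. The GM-CSF receptor chains overlapped as well. Csf2ra had 962 and 1443 normalized counts in Dhet and 1195, 1094 and 1217 in Csf1r_het, and Csf2rb had 1957 and 1701 in Dhet against 1203, 2595 and 1765 in Csf1r_het. The log2 fold changes of Csf2ra, Csf2rb and its paralog Csf2rb2 were 0.01, 0.05 and 0.05, and all 3 turned negative when libraries were centred on their median or scaled to their upper quartile. Csf3r, the G-CSF receptor, lay above in Dhet, with 2517 and 3359 normalized counts against 1178, 1640 and 1948 in Csf1r_het. Its log2 fold change of 0.90 (SE 0.40) did not pass the test (limma adjusted p = 0.465). Csf1, which encodes the ligand of Csf1r, overlapped, with 885 and 342 normalized counts in Dhet against 232, 520 and 315 in Csf1r_het. Il3ra, the IL-3 receptor alpha chain, had 27.8 and 54.0 normalized counts in Dhet against 64.7, 276 and 76.9 in Csf1r_het (log2 fold change -1.50, limma adjusted p = 0.54). Of the 11 CSF ligands and receptors listed, 7 were tested and 0 passed. Csf2 is not analysed here.

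Among 13223 genes tested, 1 passed an adjusted p of 0.05. It was Rps3a2, a processed pseudogene of the ribosomal protein gene Rps3a1, and it rose in Dhet (0.00756% of genes tested were called higher and 0.00% lower). Rps3a2 (ENSMUSG00000062611.4, chromosome 14, 88123017 to 88123808, minus strand, mm10) had 1535 and 1378 normalized counts in the Dhet libraries, against 7.92, 1.48 and 9.48 in the Csf1r_het libraries. This is a log2 fold change of 7.89 with an SE of 0.96 (limma adjusted p = 0.0236). The groups did not overlap, and the levels followed the Csf2 genotype in the other groups as well. Csf2het libraries held 1292, 1094 and 1463 normalized counts and WT libraries 8.99, 8.74 and 1.15, a log2 fold change of 7.75 (limma adjusted p = 0.000595). A second processed pseudogene, Rps3a3 (chromosome 13, 108670603 to 108671397, plus strand), had 576 and 477 normalized counts in Dhet against 1.32, 0 and 5.26 in Csf1r_het (log2 fold change 7.75, SE 1.16, limma adjusted p = 0.0944). It passed in Csf2het, with 538, 442 and 828 normalized counts against 1.93, 3.88 and 0 in WT (limma adjusted p = 0.00127). The call of Rps3a2 did not hold in a fit of the 5 libraries alone (limma adjusted p = 0.204) or without Dhet replicate 1 (limma adjusted p = 0.345), nor without Csf1r_het replicate 1 or 3 or any Csf2het library (limma adjusted p from 0.0503 to 0.118), and every alternative tried gave a log2 fold change between 7.10 and 8.27.

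The transcripts of these copies are nearly the same as that of Rps3a1, which encodes a protein of the small ribosomal subunit, and reads that fit more than 1 copy can be assigned to any of them. The values of the 3 genes are therefore uncertain. Aligned base by base in the GENCODE vM21 transcripts, Rps3a2 differs from Rps3a1 at 4 of 792 bases (99.49% identity) and Rps3a3 at 9 of 795 (98.87%). Counted from 1 at the 5′ end of the Rps3a1 transcript, the differences of Rps3a2 are T349C, T667C, A778T and T801C. A stretch of 90 bases that holds differences of both copies is shown because reads over it can tell the copies apart. It covers bases 712 to 801 of Rps3a1 and 579 to 668 of each copy, 5′ to 3′, and capitals mark the 4 positions at which the sequences differ, G715T, A778T, A793G and T801C.
Rps3a1: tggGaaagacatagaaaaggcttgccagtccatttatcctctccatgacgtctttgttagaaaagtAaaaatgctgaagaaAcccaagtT
Rps3a2: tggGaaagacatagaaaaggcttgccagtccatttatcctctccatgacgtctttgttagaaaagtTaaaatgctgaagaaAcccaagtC
Rps3a3: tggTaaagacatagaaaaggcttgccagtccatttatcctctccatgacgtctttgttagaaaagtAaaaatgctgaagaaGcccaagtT
Of the stretches of 31 bases in each transcript, 54 of 762 in Rps3a2, 165 of 765 in Rps3a3 and 219 of 947 in Rps3a1 occur in the transcripts of no other gene.

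Rps3a1, named after its values were seen, had 3937 and 3144 normalized counts in Dhet and 11085, 6646 and 15484 in Csf1r_het (log2 fold change -1.57, SE 0.48, limma adjusted p = 0.421). Both Dhet libraries lay below all Csf1r_het libraries. The copies Rps3a2 and Rps3a3 made up 34.9% and 37.1% of the summed normalized counts of the 3 genes in Dhet, against 0.0833%, 0.0223% and 0.0951% in Csf1r_het. The same share was 30.1% to 35.4% in Csf2het and 0.0167% to 0.0990% in WT. The sum itself was 6048 and 4999 normalized counts in Dhet and 11094, 6647 and 15499 in Csf1r_het. In Csf2het it was 5164, 4946 and 7612 and in WT 11030, 22004 and 6857. Whether reads moved between the 3 genes was not tested. The annotated pseudogene Gm28438 on chromosome 1, also named after its values were seen, was likewise higher in Dhet, with 23295 and 3964 normalized counts in Dhet against 14.5, 23.7 and 12.6 in Csf1r_het (log2 fold change 9.11, limma adjusted p = 0.0944). Its level differed widely between the Dhet libraries, and how well reads can be assigned to it was not examined.

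Beyond these, the smallest adjusted p of any gene was 0.194, for Bgn. At an unadjusted p under 0.05, limma gave 792 genes higher in Dhet (5.99% of genes tested) and 598 lower (4.52%). Both Dhet libraries lay above all 3 Csf1r_het libraries for 18.5% of genes and below them for 14.4%, so the groups did not overlap for 33.0%. The middle part of the distribution, between the quartiles, ran from -0.55 to 0.72 in log2 fold change. The median over all genes was 0.10, and it was -0.06 when libraries were centred on their median and 0.01 with upper-quartile scaling, so list medians below are to be read against 0.10. The count of called genes depended on the model. The edgeR quasi-likelihood test on recovered reads called 2 genes, both higher, and DESeq2 called 28 higher and 63 lower. In limma it was 121 without Dhet replicate 2 and 6 without WT replicate 2.

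**Figure D1:**
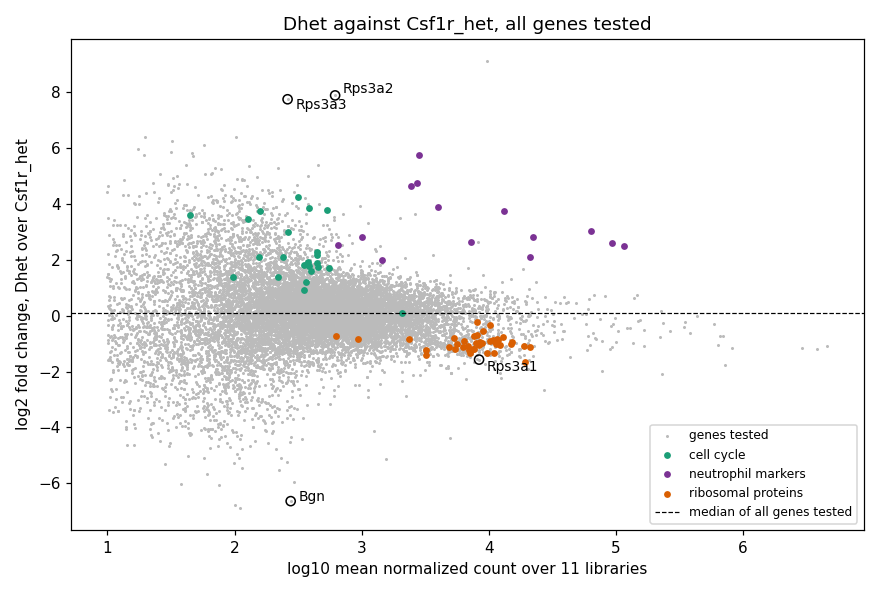
Log2 fold change of Dhet over Csf1r_het (limma coefficient on log2(normalized count + 1)) against the log10 mean normalized count over 11 libraries, with 1 grey point per gene tested and the cell cycle, neutrophil marker and ribosomal protein lists in colour. Rps3a2 at 7.89 and Rps3a3 at 7.75 stand above the cloud, and Gm28438, which is not labelled, lies higher than both. Ribosomal protein genes lie below the dashed median of 0.10, and cell cycle and neutrophil genes lie mostly above it.

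Among the genes with the lowest p of those higher in Dhet (mean of at least 50) were, after Rps3a2 and Rps3a3, Clk4, Clk1, Peli1, Lbr, Pgd, Lrrc59, Rab3d, Kpna2 and Capza1. These did not pass the adjusted threshold (limma adjusted p from 0.263 for Clk4 to 0.362 for Capza1). For each, both Dhet libraries lay above all Csf1r_het libraries (18.5% of all genes did). Choice by p in this same comparison favours such separation and the same direction within the age pairs, so neither adds support. Clk4 and Clk1 encode CDC-like kinases that phosphorylate splicing factors. Clk4 had 1411 and 1150 normalized counts in Dhet and 368, 268 and 351 in Csf1r_het, a log2 fold change of 1.96 (SE 0.39). Clk1 had 2874 and 2349 in Dhet and 857, 535 and 860 in Csf1r_het, a log2 fold change of 1.82 (SE 0.37). Peli1, a ubiquitin ligase of Toll-like receptor signalling, had 2606 and 2000 normalized counts in Dhet and 623, 237 and 633 in Csf1r_het. Both kinases and Peli1 were higher within each age pair, with log2 differences of 2.01 and 2.10 for Clk4, 1.74 and 2.13 for Clk1 and 2.04 and 3.07 for Peli1 at 21 and 24 months. Pgd, an enzyme of the pentose phosphate pathway, had 3920 and 3774 normalized counts in Dhet and 1464, 1012 and 1427 in Csf1r_het. Rab3d, a small GTPase of regulated secretion, had 1002 and 1477 normalized counts in Dhet and 232, 194 and 461 in Csf1r_het. The lamin B receptor gene Lbr, the endoplasmic reticulum gene Lrrc59, the importin alpha gene Kpna2 and the actin capping gene Capza1 had log2 fold changes of 2.09, 1.52, 1.52 and 1.47.

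The 12 genes with the lowest p among those lower in Dhet were Bgn, Bcl2a1a, Ifi27, Fcgr4, Ext1, Mt3, Ms4a7, Bex2, Mdk, Nenf, Zfp945 and Chchd10, with limma adjusted p from 0.194 for Bgn to 0.351 for Chchd10. Both Dhet libraries lay below all Csf1r_het libraries for each of them (14.4% of all genes did). Choice by p in this same comparison favours such separation, so it adds no support. Bgn encodes biglycan, a proteoglycan of the extracellular matrix. It was near the floor in both Dhet libraries, with 2.25 and 2.30 normalized counts (3 and 4 reads), against 400, 236 and 364 normalized counts in Csf1r_het. Fcgr4, an activating Fc receptor for IgG, had 990 and 1061 normalized counts in Dhet and 3507, 5358 and 2287 in Csf1r_het, a log2 fold change of -1.77 (SE 0.34). Bcl2a1a, an anti-apoptotic member of the BCL2 family, had 255 and 227 normalized counts in Dhet and 1121, 1714 and 1830 in Csf1r_het, a value that is uncertain because the gene has near-identical copies. Ms4a7, a membrane protein marking border-associated macrophages, had 9.76 and 63.8 normalized counts in Dhet and 228, 683 and 320 in Csf1r_het. Several of the other genes have roles in metal binding, growth signals or mitochondria. Mt3, a metallothionein, had 1264 and 2540 normalized counts in Dhet and 6698, 6609 and 6391 in Csf1r_het, a log2 fold change of -1.87 (SE 0.37). Mdk, which encodes the heparin-binding growth factor midkine, had 137 and 129 normalized counts in Dhet and 710, 430 and 868 in Csf1r_het. The interferon-inducible gene Ifi27 had 3660 and 5163 normalized counts in Dhet and 14873, 12998 and 13233 in Csf1r_het. Ext1, a heparan sulfate polymerase, Bex2, the secreted factor gene Nenf, the zinc finger gene Zfp945 and the mitochondrial gene Chchd10 had log2 fold changes of -3.27, -2.22, -1.46, -2.48 and -1.62.

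**Figure D2:**
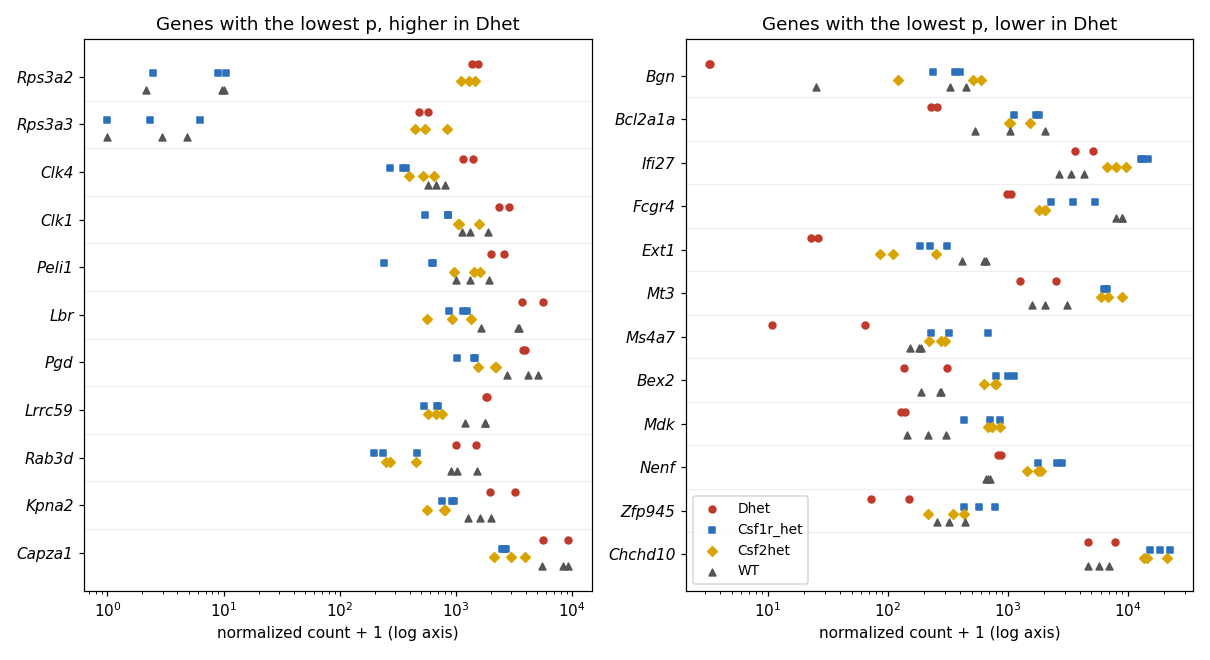
Normalized count + 1 on a log axis for the genes named with the lowest p in each direction, with 1 symbol per library for Dhet (red circles), Csf1r_het (blue squares), Csf2het (yellow diamonds) and WT (grey triangles). The Dhet symbols lie to the right of all Csf1r_het symbols on the left panel and to the left of them on the right panel, and for Rps3a2 and Rps3a3 the Csf2het symbols lie with Dhet and the WT symbols with Csf1r_het. The genes were picked by p in this comparison, which favours separation of Dhet from Csf1r_het.

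Genes of the cell cycle were higher in Dhet across the list, although none passed the adjusted test. Of 23 tested, 23 had a positive log2 fold change with a median of 1.92 (22 when libraries were centred on their median or scaled to their upper quartile), 16 had an unadjusted limma p under 0.05 (792 of 13223 genes did, 5.99%), and 19 lay above all Csf1r_het libraries in both Dhet libraries (18.5% of all genes did). The range ran from 0.09 for Pcna, the sliding clamp of DNA replication, to 4.26 for Ccnb1, the mitotic cyclin B1. Ccnb1 had 1031 and 1376 normalized counts in Dhet and 114, 7.41 and 247 in Csf1r_het (SE 1.22, limma adjusted p = 0.418). Mcm7 and Mcm6 encode subunits of the replicative helicase. Mcm7 had 1284 and 1022 normalized counts in Dhet and 224, 296 and 247 in Csf1r_het (log2 fold change 2.17, SE 0.55, limma adjusted p = 0.382), and Mcm6 had 804 and 1023 in Dhet and 209, 181 and 477 in Csf1r_het. The median of the list was 1.12 within the 21-month pair and 2.49 within the 24-month pair, and between 1.61 and 2.28 when each library in turn was left out. In bulk RNA, more cells in cycle and more of this RNA per cell cannot be told apart.

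Markers of neutrophils were on the same side. All 14 were tested and 14 had a positive log2 fold change, with a median of 2.81 and a range from 2.01 for Ly6g to 5.76 for Elane, 7 had an unadjusted limma p under 0.05 (5.99% of all genes did), and 9 lay above all Csf1r_het libraries in both Dhet libraries (18.5% of all genes did). Their summed level was 742574 and 797448 normalized counts in Dhet and 113736, 29435 and 499524 in Csf1r_het. In WT the sums were 56888, 256234 and 860787, so WT replicate 3 lay above both Dhet libraries. In Csf2het they were 204995, 122813 and 181508. S100a8, a subunit of calprotectin that neutrophils store, had 197892 and 248159 normalized counts in Dhet and 33493, 10476 and 167621 in Csf1r_het, and its log2 fold change of 2.51 (SE 1.23) did not pass (limma adjusted p = 0.484). The Csf1r_het libraries spread widely, and the list median was 0.68 within the 21-month pair and 5.01 within the 24-month pair. The 24-month pair holds Csf1r_het replicate 2, the library with the lowest sum, and without that library the list median was 2.04. Among the 5 libraries these markers and the cell cycle genes were both highest in Dhet, and their part in the cell cycle values was not tested.

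Other cell type lists had medians nearer to that of all genes. The monocyte list had a median of -0.03 over 11 genes, with Chil3, a chitinase-like protein, at 35970 and 29517 normalized counts in Dhet against 14716, 4595 and 15282 in Csf1r_het, and Plac8 at 6621 and 8012 in Dhet against 12216, 25489 and 14221 in Csf1r_het. These 2 genes lay on opposite sides. Markers of choroid plexus and cilia were lower in Dhet for 11 of 12 genes (median log2 fold change -0.85, 6 below all Csf1r_het libraries in both Dhet libraries, as were 14.4% of all genes), with a summed level of 289060 and 651071 normalized counts in Dhet and 910126 to 1609798 in Csf1r_het. The size of this difference rested on Dhet replicate 1. The list median was -1.58 within the 21-month pair and -0.10 within the 24-month pair, and it was -0.25 with 5 of 12 genes positive without Dhet replicate 1. Ttr, the transthyretin gene of choroid plexus, had 226138 and 438300 normalized counts in Dhet and 1119760, 781961 and 1409436 in Csf1r_het. The 11 erythroid markers summed to 8397275 and 5569179 normalized counts in Dhet and to 6958555 to 38706750 in Csf1r_het, with a median log2 fold change of -0.39 that was 0.21 without Dhet replicate 1. The lists of oligodendrocyte precursors and of mural cells and fibroblasts rested on 2 and 1 genes. The neuron, astrocyte, oligodendrocyte, endothelial, T and NK cell, B cell and border-associated macrophage lists had medians of -0.02, 0.25, 0.45, -0.26, -0.49, 0.11 and -0.95. The monocyte, neuron, astrocyte, endothelial and B cell medians turned sign when some single library was left out, and the B cell median was -2.11 within the 21-month pair and 2.61 within the 24-month pair. No tested marker was at 0 in all 5 libraries.

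Genes of protein synthesis and respiration were on the lower side. All 41 cytosolic ribosomal protein genes tested had a negative log2 fold change, with a median of -0.98, a range from -1.65 for Rps29 to -0.24 for Rpl4, and 37 below all Csf1r_het libraries in both Dhet libraries (14.4% of all genes were). None passed, and 0 had an unadjusted limma p under 0.05. Rpl19 had 7677 and 6008 normalized counts in Dhet and 12806, 11915 and 18529 in Csf1r_het, a log2 fold change of -1.06 (SE 0.52, limma adjusted p = 0.484). The list median was -1.19 within the 21-month pair and -0.99 within the 24-month pair. Of 34 subunit genes of oxidative phosphorylation, 27 had a negative log2 fold change, with a median of -0.98. Of these 34, 24 lay below all Csf1r_het libraries in both Dhet libraries (14.4% of all genes did). Cox8a, a subunit of cytochrome c oxidase, had 11026 and 9093 normalized counts in Dhet and 26236, 25274 and 30319 in Csf1r_het (log2 fold change -1.44, SE 0.55, limma adjusted p = 0.447), and Cox5a had 3767 and 4051 in Dhet and 8389, 8628 and 10884 in Csf1r_het. In median log2 level over the list, WT replicates 1 and 3 stood below Dhet (11.7 and 11.8 against 12.1 and 12.2) and WT replicate 2 above, at 14.0. The respiration list was lower within both age pairs, by medians of -1.35 at 21 months and -0.77 at 24 months. Its medians and those of the ribosomal list stayed between -1.24 and -0.71 under every alternative tried. The choroid plexus and cilium markers were lower in the same libraries, and their part in the respiration values was not tested.

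**Figure D3:**
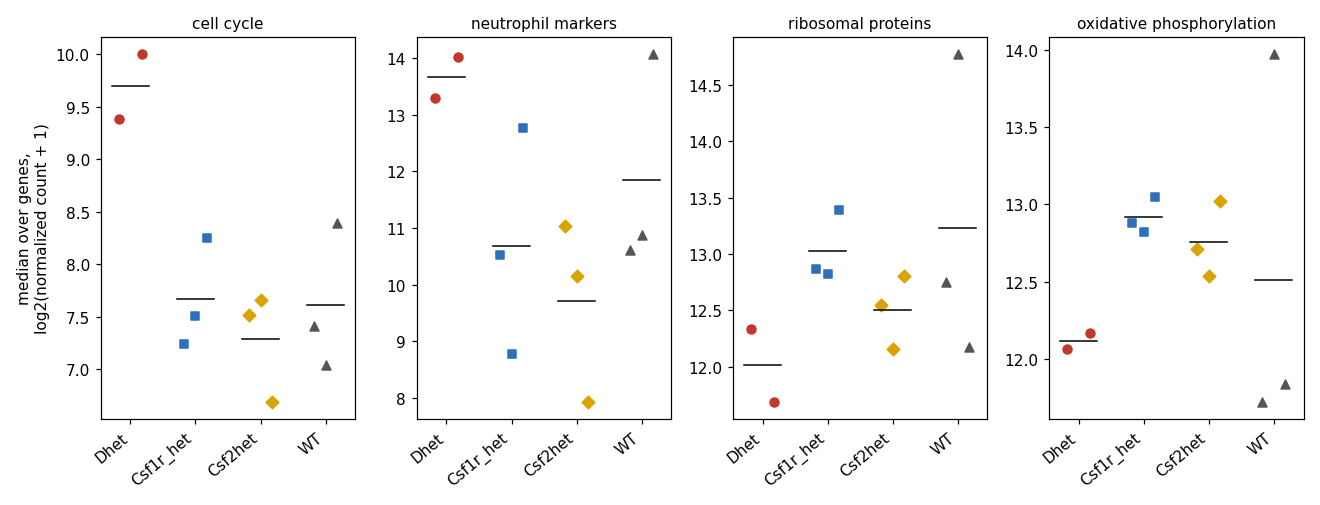
Median over the genes of a list of log2(normalized count + 1), with 1 symbol per library, a bar at the group mean and groups in the order Dhet, Csf1r_het, Csf2het and WT. The Dhet libraries stand at 9.38 or above for the cell cycle list, higher than all other libraries, and at 12.1 and 12.2 for oxidative phosphorylation, below all Csf1r_het libraries, while WT replicate 2 stands apart at 14.8 for ribosomal proteins. For oxidative phosphorylation WT replicates 1 and 3 stand below Dhet, at 11.7 and 11.8, and WT replicate 2 at 14.0. For ribosomal proteins Csf2het replicate 2 and WT replicate 3, at 12.2 each, lie between the Dhet libraries at 12.3 and 11.7.

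The lists that describe the state of microglia moved less. Homeostatic microglia genes had a median log2 fold change of 0.35, with 16 of 24 positive and 0 called. P2ry13, a purinergic receptor of resting microglia, had 20483 and 17560 normalized counts in Dhet and 8722, 7299 and 8948 in Csf1r_het (log2 fold change 1.19, SE 0.48, limma adjusted p = 0.448). Crybb1, a crystallin gene also typical of these cells, lay on the other side, with 3151 and 2027 normalized counts in Dhet and 3505, 7243 and 4148 in Csf1r_het. Disease-associated microglia genes, which rise around amyloid and in degenerating tissue, had a median of -0.23 with 16 of 24 negative. Their direction turned on Dhet replicate 2, without which the median was 0.094 with 14 of 24 positive, and the age pairs gave 0.089 at 21 months and -0.54 at 24 months. The homeostatic median was 0.52 within the 21-month pair and -0.18 within the 24-month pair, and 0.0062 with 12 of 24 positive without Dhet replicate 1. Lysosomal genes had a median of 0.43 with 20 of 29 positive, and Lipa, the lysosomal acid lipase gene, had 1827 and 2158 normalized counts in Dhet and 1443, 893 and 1276 in Csf1r_het. The lysosomal median was 0.62 within the 21-month pair and 0.075 within the 24-month pair, and under the scalings tried it lay between 0.25 and 0.43.

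Immune signalling lists split. MHC class II genes were negative for 10 of 11, with a median of -0.72 and 4 below all Csf1r_het libraries in both Dhet libraries (14.4% of all genes were). H2-Aa had 4887 and 7458 normalized counts in Dhet and 14634, 15588 and 17434 in Csf1r_het (log2 fold change -1.39, SE 0.44, limma adjusted p = 0.421), and H2-Eb1 had 3865 and 5853 in Dhet and 9198, 13107 and 16057 in Csf1r_het. Both encode chains that present peptides to CD4+ T cells. Toll-like receptor pathway genes were positive for 11 of 14, with a median of 0.56, and Myd88, the adaptor of most of these receptors, had 2027 and 1831 normalized counts in Dhet and 1381, 533 and 812 in Csf1r_het. The phagocyte NADPH oxidase list had a median of 0.37 over 8 genes, and Ncf1, its p47phox subunit gene, had 6290 and 5473 normalized counts in Dhet and 2268, 3501 and 3089 in Csf1r_het. In the interferon list 15 of 25 genes were negative (median -0.24), but without Csf1r_het replicate 2 the median was 0.26 with 15 of 25 positive, and it was 0.14 within the 21-month pair and -1.29 within the 24-month pair. In the list of JAK-STAT5 and GM-CSF response 11 of 21 genes were negative (median -0.29, with 0.048 and -0.57 within the 21-month and the 24-month pair). Within that list Socs2, a STAT5-induced feedback inhibitor, had 15.8 and 102 normalized counts in Dhet and 412, 476 and 290 in Csf1r_het (log2 fold change -3.21, SE 0.85, limma adjusted p = 0.382). Ccnd2, which encodes cyclin D2, had 920 and 808 normalized counts in Dhet and 1944, 2223 and 1962 in Csf1r_het, with both Dhet libraries below all Csf1r_het libraries. Ccnd2 is not in the cell cycle list above and went the opposite way to it.

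Glutathione and antioxidant genes were negative for 17 of 27, with a median of -0.50, and 13 lay below all Csf1r_het libraries in both Dhet libraries (14.4% of all genes did). Gsta4, a glutathione transferase for lipid aldehydes, had 541 and 1402 normalized counts in Dhet and 3758, 2934 and 3992 in Csf1r_het (log2 fold change -2.02, SE 0.48, limma adjusted p = 0.351). Gpx4, the peroxidase that reduces lipid peroxides, had 6450 and 13401 normalized counts in Dhet and 20276, 17684 and 21996 in Csf1r_het. Immediate early genes, which also respond to tissue dissociation, were positive for 15 of 18, with a median of 0.89 that was 1.23 within the 21-month pair and 0.29 within the 24-month pair. Their summed level was 55929 and 21268 normalized counts in Dhet and 20824 to 21240 in Csf1r_het, so it was mainly Dhet replicate 1 that was high. Without Dhet replicate 1 the median was 0.011. Glycolysis, cholesterol synthesis, lipid handling, TGF-beta signalling, unfolded protein response, complement, MHC class I and inflammatory cytokine lists had medians between -0.30 and 0.23 with 0 genes called. Of these lists only glycolysis and the unfolded protein response kept the sign of the median with each library left out in turn, and the complement median was 0.57 without Dhet replicate 2. The myeloid transcription factor list had a median of -0.06 over 22 genes and the neurotrophic and growth factor list 0.18 over 11. Itgb8, the integrin chain that activates latent TGF-beta, was the gene with the lowest p in the TGF-beta list, with 75.8 and 214 normalized counts in Dhet and 680, 1242 and 470 in Csf1r_het.

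**Figure D4:**
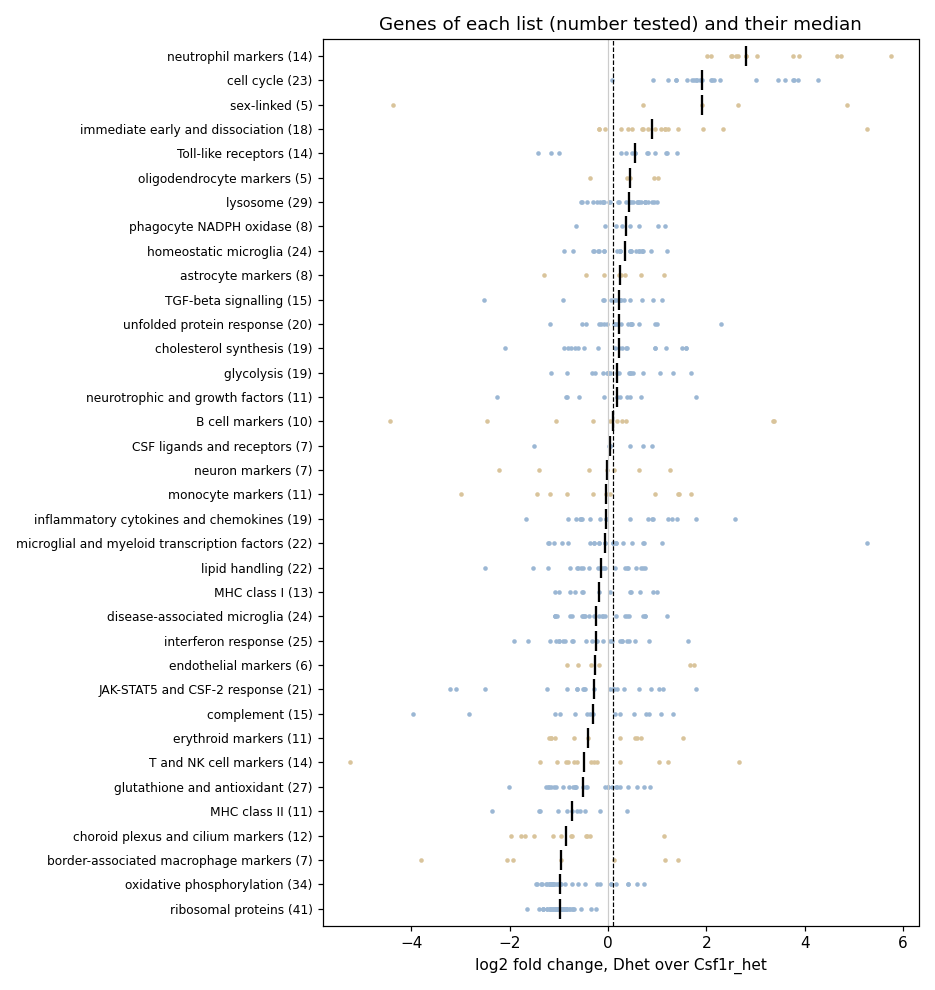
Log2 fold change of Dhet over Csf1r_het for the genes of each list with at least 5 genes tested, sorted by median (black bar), with pathway lists in blue, cell type and technical lists in tan and a dashed line at the median of all genes. Neutrophil markers (2.81) and the cell cycle (1.92) have the highest medians, and oxidative phosphorylation and ribosomal proteins (-0.98 each) the lowest.

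Whether loss of a Csf2 copy did the same on both Csf1r backgrounds was tested as an interaction, the log2 fold change of Dhet over Csf1r_het minus that of Csf2het over WT. Of 13223 genes, 159 had a positive (1.20%) and 85 a negative interaction (0.643%) at an adjusted p of 0.05, which is 1.85% together. The split was 119 and 122 when libraries were centred on their median, and 101 and 126 with upper-quartile scaling. Without Dhet replicate 2 it turned to 77 positive and 168 negative, with 126 of these 245 genes also called with all libraries, and with only the libraries of 20 and 21 months it was 103 and 267. For 227 of the 244 genes called with all libraries the log2 fold changes had opposite signs on the 2 backgrounds, and 185 were also called in Csf2het against WT. The median size of the log2 fold change among the 244 genes was 1.03 in Dhet against Csf1r_het and 1.84 in Csf2het against WT. These genes were picked by the difference of the 2 log2 fold changes, which favours opposite signs and large changes. The counts therefore add no support for a reversal. On the WT background 107 genes rose (0.809%) and 375 fell (2.84%) in Csf2het, which is 3.65% together, a split of 167 and 280 with upper-quartile scaling. Over all genes tested the 2 log2 fold changes, which share no library, had a Pearson r of -0.12 and a Spearman rho of -0.16, given as a description across genes that are not independent. The interaction count was 47 without Dhet replicate 1, 103 and 72 without Csf1r_het replicate 1 and 3, 71, 95 and 86 without each Csf2het library in turn, 61 without WT replicate 1 and 896 without WT replicate 2. The count in Csf2het against WT was 173, 228 and 219 without each Csf2het library in turn and 172 without WT replicate 1.

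Among the genes with the smallest interaction p were Pygl, Nfe2 and Pirb on the positive side and Ifi27, Mt3, Calml4 and Hist1h2bc on the negative side. Pygl encodes liver glycogen phosphorylase, which breaks down glycogen. It had 2760 and 2262 normalized counts in Dhet against 784, 867 and 1051 in Csf1r_het, and 449, 279 and 188 in Csf2het against 3080, 3362 and 3867 in WT (interaction 5.05, SE 0.51, limma adjusted p = 0.00136). The Dhet libraries thus lay above Csf1r_het while the Csf2het libraries lay below WT. Nfe2, a transcription factor of blood cell lineages, had 2594 and 2363 normalized counts in Dhet against 946, 923 and 963 in Csf1r_het, and 577, 549 and 307 in Csf2het against 3293, 2381 and 3369 in WT. Pirb, an inhibitory receptor of myeloid cells, overlapped between Dhet (1446 and 2176) and Csf1r_het (1530, 766 and 998), and its interaction of 4.20 (SE 0.49, limma adjusted p = 0.00362) came with a fall in Csf2het to 510, 651 and 631 normalized counts, against 8367, 5874 and 5605 in WT. On the negative side Mt3 had 9016, 6056 and 6883 normalized counts in Csf2het against 1583, 3108 and 2029 in WT, and an interaction of -3.62 (SE 0.50, limma adjusted p = 0.00851). Ifi27 had 9610, 6764 and 8044 in Csf2het against 3363, 2657 and 4316 in WT, and an interaction of -2.91 (SE 0.43, limma adjusted p = 0.00874). For both, Dhet lay below Csf1r_het and Csf2het rose above WT. Calml4 and Hist1h2bc, a calmodulin-like gene and a histone gene with near-identical paralogs, had interactions of -3.10 and -3.01.

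Among the lists, the interaction was most frequent for monocyte markers, of which 6 of 11 had a positive interaction and 11 of 11 fell in Csf2het against WT (median log2 fold change -2.91 in Csf2het over WT and -0.03 in Dhet over Csf1r_het). Of all genes tested, 2.84% fell and 0.809% rose in Csf2het against WT, while 1.20% had a positive and 0.643% a negative interaction. The part of the monocyte markers in the other positive interactions, such as those of Pygl, Nfe2, Pirb and Cfp, was not tested. The phagocyte NADPH oxidase list had 3 of 8 positive, and the complement list 3 of 15. On the negative side were 3 of 12 choroid plexus and cilium markers, with a median interaction of -1.98 and 2 genes that rose in Csf2het against WT, and their part in the other negative interactions was not tested. Cfp, which encodes the complement activator properdin, had 1327 and 1696 normalized counts in Dhet against 1196, 216 and 829 in Csf1r_het, and 211, 302 and 95.4 in Csf2het against 2531, 1111 and 1810 in WT (interaction 4.55, SE 0.91, limma adjusted p = 0.0261). Ribosomal protein genes had 0 of 41 called for the interaction, with median log2 fold changes of -0.98 in Dhet over Csf1r_het and -0.69 in Csf2het over WT. The cell cycle list had 1 of 23, Mcm7, with medians of 1.92 and -0.62 on these backgrounds. For the GM-CSF receptor chains, Csf2ra and Csf2rb fell in Csf2het, with 843, 1091 and 841 normalized counts against 4333, 2585 and 2056 in WT for Csf2ra (limma adjusted p = 0.0157) and 1306, 1425 and 1338 against 5995, 5546 and 3670 for Csf2rb (limma adjusted p = 0.00654). Their interactions of 1.64 and 1.92 did not pass (limma adjusted p = 0.106 and 0.0627).

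**Figure D5:**
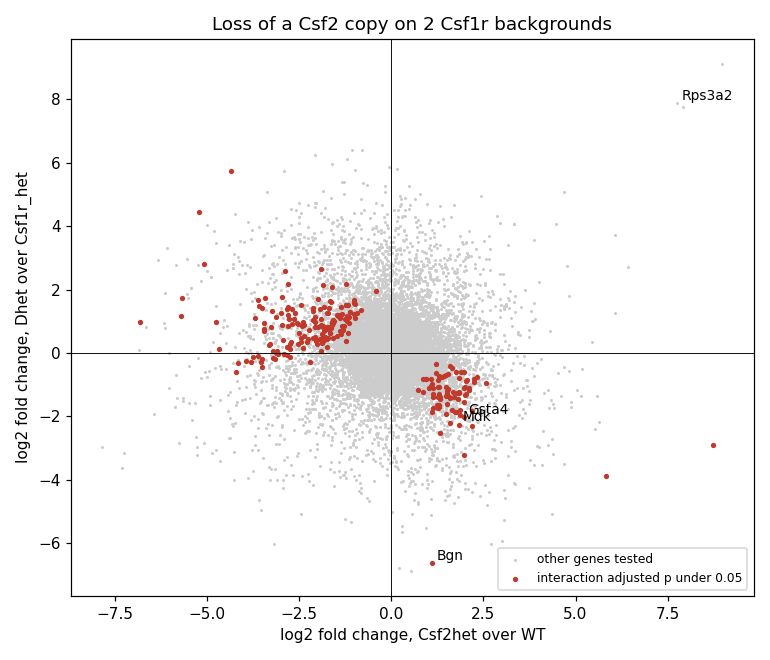
Log2 fold change of Dhet over Csf1r_het (vertical axis) against that of Csf2het over WT (horizontal axis), with 1 point per gene tested and the 244 genes with an interaction at an adjusted p of 0.05 in red. Of the red points, 142 lie in the upper left, 85 in the lower right and the rest elsewhere, while Rps3a2 lies in the upper right at 7.75 and 7.89. The red points were picked by the difference between the axes, which favours the upper left and lower right.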

How the data were processed

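RNA was measured in 11 libraries, of which 2 Dhet and 3 Csf1r_het libraries form the comparison. Per the submitters' processing notes, the tools were kallisto 0.43.1, with the mm10 build, and DESeq2. The deposited signal, called normalized counts here, is a gene count scaled by the authors with 1 factor per library. It was turned back into reads by dividing by the worth of 1 read, and 100% of values were then whole to within 0.02 reads. Of 14739 genes, 13223 with a mean of at least 10 were tested and 1516 left out. Limma 3.58.1 (R 4.3.3), with a trended prior, fitted log2(normalized count + 1) over the 4 groups, with 5.90 prior and 7 residual degrees of freedom. Fold changes of low genes are therefore understated. P-values were adjusted by Benjamini-Hochberg within each contrast at 0.05. On the recovered reads, edgeR 4.0.16 and DESeq2 1.42.0 served as alternatives, and the other alternatives changed the pseudocount, filter, scaling, prior, covariates or libraries. The limma and edgeR fits were also run on simulated counts with set fold changes in Dhet, and only the direction of the limma medians was required to be right. The simulation held no effect of age, no difference in sex-linked genes and no outlying library, so it does not bear on those limits.

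The genes named are those called, the 12 with the lowest p in each direction with a mean of at least 50 and no predicted name (1 skipped each way), the CSF ligands and receptors, the genes with the lowest p of each of 38 lists and the 4 with the lowest interaction p in each direction. Genes at the ends of a range, Tmem119, Ddx3y, Rps3a1 and Gm28438 were picked with their values in view. A few of these genes are left out here. The groups compared, the gene lists and this rule were chosen with earlier results of these data known. Positions come from the deposited table, and sequences from the GENCODE vM21 transcripts of the same build.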

Additional observations from a re-analysis of the deposited data

Results flagged for a closer look

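For 37 of the genes named, the log2 fold change of Dhet over Csf1r_het differed from that of Csf2het over WT at an adjusted p of 0.05 in the interaction test of limma, over 2 Dhet, 3 Csf1r_het, 3 Csf2het and 3 WT libraries. The interaction values that follow are on the log2 scale, and a positive value means that the log2 fold change was more positive on the Csf1r+/- background.

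Among genes with the lowest p in Dhet against Csf1r_het, the positive interactions were Clk4 2.37, Lbr 3.69, Pgd 2.59, Lrrc59 2.74, Rab3d 3.98, Kpna2 2.70, Capza1 2.82. Negative ones were Bgn -7.74, Ifi27 -2.91, Mt3 -3.62, Bex2 -3.81, Mdk -4.09, Nenf -2.77, Chchd10 -3.12. Among genes of immunity and signalling, positive interactions were Stat3 2.48, Irf9 2.11, Rac2 2.27, Itgb2 2.50, Cfp 4.55, Il16 2.42, Myd88 2.67, and negative ones were Socs2 -5.19, Itgb8 -3.85, Vegfb -2.12. Of antioxidant, disease-associated, lysosomal trafficking and secretory pathway genes, Gsta4 -3.99, Gpx4 -2.22, Cd63 -2.16, Manf -1.91 were negative. Of metabolic and cell cycle genes, Slc16a3 3.46, Mcm7 3.38 were positive. The myeloid markers Chil3 3.68, F13a1 4.93 were positive. By the interaction itself, Pygl 5.05, Nfe2 4.08, Pirb 4.20 were positive and Calml4 -3.10, Hist1h2bc -3.01 negative. The sets were not chosen independently of the contrast they are taken from, and of all genes tested 1.85% passed.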

How the results depend on the processing

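With 2 Dhet libraries and a median SE of 0.64 in log2 fold change, differences of small size cannot pass at this group size. The count of genes called in Dhet against Csf1r_het was 0 at a pseudocount of 0.5, 3 at a pseudocount of 5, 0 for a mean of at least 100, 0 with only the 5 libraries and 2 with edgeR under TMM or DESeq2 size factors, against 91 with DESeq2. With only the libraries of 20 and 21 months it was 194. Leaving out each library in turn gave 0 to 121. Without a Dhet library the lone other one is assumed to vary like the rest. In the limma fits that called 0 genes, 1198 to 1609 had an unadjusted p under 0.05. The 121 came without Dhet replicate 2: of 118 genes then lower, 52 were at 0 in Dhet replicate 1, their median normalized count was 0.751 in that library, 217 in Dhet replicate 2 and 249 in Csf1r_het, and in 75 Dhet replicate 2 lay above the lowest Csf1r_het library. The cause was not tested. For the interaction the count was 908 with DESeq2, 370 with the libraries of 20 and 21 months and 47 to 896 with each library left out. For Csf2het against WT it was 1130 with DESeq2 and 172 to 676 with each library left out.

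Replicate numbers did not pair the samples: same-numbered Dhet and Csf1r_het libraries deviated from their group means with correlations of -0.10 and -0.11. With the replicate number as a block, 0 genes were called in Dhet against Csf1r_het, 14 for the interaction and 256 in Csf2het against WT. Rps3a2 was no longer called at a pseudocount of 0.5, for a mean of at least 100, with only the 5 libraries, under the replicate block, or without Dhet replicate 1, Csf1r_het replicate 1 or 3 or any Csf2het library (adjusted p from 0.0503 to 0.345). Over all alternatives its adjusted p ran from 5.96e-29 with DESeq2 to 0.345.

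Some log2 fold changes of Dhet over Csf1r_het that passed no test turned sign. Centred on the median the sign turned, to -0.15 for Csf2ra, -0.11 for Csf2rb, -0.11 for Csf2rb2, -0.030 for Snap25, -0.045 for Stab1. With upper-quartile scaling the sign turned, to -0.076 for Csf2ra, -0.042 for Csf2rb, -0.038 for Csf2rb2. Under the replicate block the sign turned, to -0.075 for Csf2ra, -0.028 for Csf2rb, -0.040 for Csf2rb2. With age as a covariate the sign turned, to -0.022 for Csf2ra, -0.074 for Csf2rb, -0.12 for Slc1a2, -0.47 for Olig1, -0.048 for Stab1. With only libraries of 20 and 21 months the sign turned, to -0.33 for Csf2ra, -0.44 for Snap25, 0.28 for Camk2a, -1.78 for Acta2, 0.061 for Nkg7, -0.54 for Ighm, 1.17 for Xist, -0.65 for Ddx3y. With edgeR and TMM the sign turned, to -0.046 for Csf2ra, -0.093 for Csf2rb, -0.32 for Snap25, -0.39 for Slc1a2, -0.36 for Olig1, -0.043 for Ighm, -0.086 for Stab1. With edgeR and DESeq2 size factors the sign turned, to -0.034 for Csf2ra, -0.074 for Csf2rb, -0.31 for Snap25, -0.36 for Slc1a2, -0.34 for Olig1, -0.034 for Ighm, -0.064 for Stab1. With DESeq2 the sign turned, to -0.034 for Csf2ra, -0.074 for Csf2rb, -0.31 for Snap25, -0.36 for Slc1a2, -0.34 for Olig1, -0.034 for Ighm, -0.064 for Stab1. With each library left out in turn the ranges that crossed 0 were -0.28 to 0.31 for Csf2ra, -0.23 to 0.32 for Csf2rb, -1.13 to 1.23 for Csf2rb2, -0.068 to 1.99 for Zfp36, -0.23 to 0.82 for Snap25, -0.26 to 0.45 for Camk2a, -0.38 to 1.12 for Slc1a2, -0.90 to 1.34 for Olig1, -0.88 to 0.53 for Slco1a4, -0.64 to 2.85 for Acta2, -1.37 to 0.47 for Enpp2, -0.61 to 0.21 for Nkg7, -0.20 to 0.67 for Ighm, -2.45 to 0.55 for Igkc, -0.27 to 0.54 for Stab1, -9.69 to 0.97 for Xist, -1.24 to 6.55 for Ddx3y. Of the single-gene values, 3130 kept direction and side of the threshold, 77 turned sign, 55 gained and 10 lost a call; of the list medians 908 moved by less than the spread and 41 by more. For a mean of at least 100 the mural and fibroblast list had no gene left and gave no value.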

Other observations

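The genes that lie within 5 Mb of Csf2 on chromosome 11 were looked at on their own. Of 94 tested, 20 lay above and 14 below all Csf1r_het libraries in both Dhet libraries (36.2%, against 33.0% of all genes tested). Their median log2 fold change was 0.034, the smallest adjusted p among them in limma was 0.263, and 0 were called.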
